A study of Homo sapiens with 2 samples.

Results

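Genes with a ZNF symbol encode zinc finger proteins, the largest class of human transcription factors, and 211 of them were expressed in the Huh7 cells examined here. A gene was taken when its symbol was ZNF, a number and at most 1 further letter and its mean TPM (a transcript level scaled for gene length and library size) over the 2 libraries was at least 5. One ZNF gene was set aside by the rule. The filter kept 211 of 559 ZNF genes, out of 61541 genes in the deposited table and 10314 genes that passed the same filter. Of the 348 ZNF genes under the filter, 61 had no reads in either library.

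The cell line Huh7 comes from a human hepatocellular carcinoma. Total RNA was sequenced from Huh7 cells given a control siRNA (Huh7-NC) and from Huh7 cells given an siRNA against BRF2 (Huh7-si), with 1 library per condition. BRF2 encodes a subunit of an initiation factor of RNA polymerase III, and the comparison asks which mRNAs differ when it is lowered. Which of the study's siRNAs was used is not given in the sources used here. Reads on genes totalled 22852648 (Huh7-NC) and 22089016 (Huh7-si), and BRF2 itself went from 1281 to 364 of them (log2 fold change -1.77, 95% interval -1.94 to -1.60). All 10 hepatocyte and hepatoma markers listed, among them ALB and AFP, were present at 76.6 TPM or more. Of the other markers, DCN (fibroblast) and CD3E (leukocyte) were at 0 in both libraries and LYZ gave nearly the whole leukocyte sum (438 and 433 TPM). PTPRC (leukocyte) had 0.05 TPM in Huh7-NC and 0.01 TPM in Huh7-si. The 3 endothelial markers summed to 0.96 TPM in Huh7-NC and 1.6 TPM in Huh7-si. The sum of 4 fibroblast markers was 12.2 TPM in Huh7-NC and 28.6 TPM in Huh7-si, mostly from COL1A2, and the part of this difference in the results below was not tested.

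ZNF genes encode proteins with fingers of the C2H2 type, in which a pair of cysteines and a pair of histidines hold a zinc ion and the residues between them contact DNA. Many of these proteins also carry a KRAB domain, which recruits TRIM28 and the histone methyltransferase SETDB1 to silence the bound DNA, above all transposable elements. Others carry a SCAN domain, through which such proteins pair, or no domain of either kind, and some of these work in RNA processing or on ribosomes. KRAB zinc finger genes lie in clusters, most of them on chromosome 19, that arose by gene duplication.

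By a search of the proteins translated from GENCODE release 29, 107 of the expressed ZNF genes encoded a KRAB domain alone, 11 a KRAB and a SCAN domain, 4 a SCAN domain alone and 83 no domain of either kind. The remaining 6 were placed in no class, and 5 of these 6 are annotated as pseudogenes. The other, ZNF875, is annotated as protein-coding, but no coding sequence of it entered the search, so its domains are not known here. The 118 genes with KRAB had a median of 11 fingers and the 87 without had 6, with a maximum of 31 in ZNF91 and ZNF142. One finger of each of 6 genes is shown so that the shared frame and the differing base composition can be seen. It is the first finger with the spacing of the classical form in the coding sequence, read 5′ to 3′ from the GENCODE transcript, and the capitals mark the codons of the cysteines and histidines. The first 3 are the KRAB genes with the largest rise in Huh7-si among those that overlap no other gene with reads. The last 3, which encode no KRAB domain, have the lowest log2 fold change among members that overlap none.
ZNF300: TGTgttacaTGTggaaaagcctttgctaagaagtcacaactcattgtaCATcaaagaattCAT
ZNF331: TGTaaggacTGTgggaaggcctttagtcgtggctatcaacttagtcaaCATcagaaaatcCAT
ZNF100: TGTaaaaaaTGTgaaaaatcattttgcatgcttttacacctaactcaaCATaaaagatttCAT
ZNF787: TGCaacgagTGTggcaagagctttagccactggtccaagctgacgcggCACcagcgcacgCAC
ZNF775: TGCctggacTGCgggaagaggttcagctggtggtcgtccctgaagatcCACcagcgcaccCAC
ZNF414: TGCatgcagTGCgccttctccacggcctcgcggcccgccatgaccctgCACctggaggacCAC
The GC content of these coding units was 34.9%, 42.9% and 25.4% in ZNF300, ZNF331 and ZNF100 and 61.9%, 63.5% and 69.8% in ZNF787, ZNF775 and ZNF414. All 6 units are 63 bases long and keep the same spacing of the 4 capitalised codons.

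Levels of expressed ZNF genes were mostly higher in Huh7-si. Their summed reads were 121413 in Huh7-NC and 148954 in Huh7-si, which is 0.531% and 0.674% of all reads on genes. On the scale of CPM (reads scaled to the library's total of reads on genes), the log2 fold change of Huh7-si over Huh7-NC had a median of 0.42 over the 211 genes, with quartiles of 0.09 and 0.70 and a range from -0.61 to 2.43. Over all 10314 genes with the same filter the median was 0.06. With 1 library per condition no test of the conditions can be made. Intervals are 95% Clopper-Pearson intervals of the read counts, cover counting error only and carry no replicate check, and genes at least 2-fold apart are counted in place of a test.

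Of the 211 genes, 19, a share of 9%, were at least 2-fold higher in Huh7-si and 0 were at least 2-fold lower. Among all genes with the same filter, 5.12% were 2-fold higher and 0.601% were 2-fold lower. At a fold of 1.5, 72 ZNF genes (34.1%) were higher and 1 was lower, where 15.2% and 4.49% of all genes were. Any higher value in Huh7-si was seen in 172 ZNF genes (81.5%), against 55.9% of all genes. The counting interval lay above 0 for 141 ZNF genes (66.8%) and below 0 for 20 (9.48%), against 41.7% and 31.6% of all genes, so 50 ZNF genes could not be told from equal CPM at this depth.

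**Figure D1:**
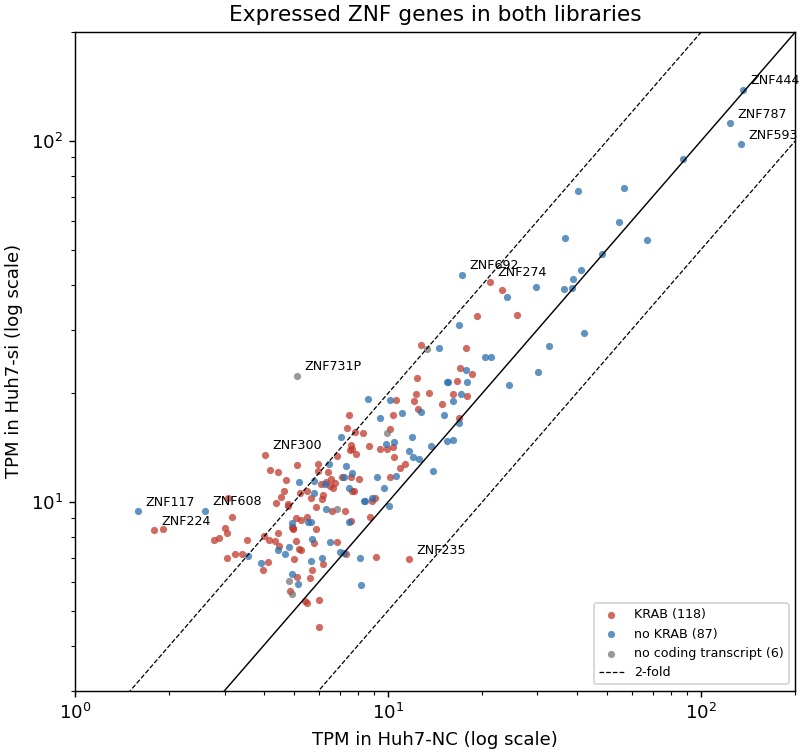
TPM of each of the 211 expressed ZNF genes in Huh7-NC (x axis, log scale) and Huh7-si (y axis, log scale), coloured by whether the protein holds a KRAB domain; the solid line marks equal TPM and the dashed lines a 2-fold difference. Most points lie above the solid line, and the genes with the highest TPM, ZNF444, ZNF787 and ZNF593, lie on or below it.

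The filter on mean TPM chose the members with both libraries in view. In 43 of the 211 genes TPM was under 5 in Huh7-NC, so that they were members only through Huh7-si, and 12 of the 19 genes with a 2-fold rise were among these. Only ZNF688 was a member through Huh7-NC alone. When genes were taken by a TPM of at least 5 in Huh7-NC, 168 ZNF genes remained with a median of 0.29, and 7 (4.17%) were 2-fold higher, against a median of 0.02 and 2.83% for the 9628 genes taken the same way. Just inside the filter lay ZNF773, ZNF224, ZNF100, ZNF700 and ZNF680, with mean TPM from 5.03 to 5.24 and log2 fold changes of 0.94, 1.75, 1.41, 0.97 and 0.42. Just outside lay ZNF503, ZNF623, ZNF417, ZNF16 and ZNF398, with mean TPM from 4.86 to 4.99 and log2 fold changes of 0.24, 0.50, 1.59, 0.12 and 0.28. The 261 ZNF genes under the filter with at least 10 reads had a median of 0.68, and 65 of them (24.9%) were 2-fold higher and 2 were 2-fold lower. All 7690 genes taken the same way had a median of 0.54, with 29.3% at least 2-fold higher.

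The genes that encode KRAB proteins and those that do not differed in their change. The median log2 fold change of CPM was 0.56 over the 118 KRAB genes (quartiles 0.30 and 0.82) and 0.10 over the 87 genes without KRAB (quartiles -0.09 and 0.48). A value above 0 was seen in 111 KRAB genes (94.1%) and in 55 genes without KRAB (63.2%). Of the 19 genes with a 2-fold rise, 15 encode KRAB, 3 do not and 1 has no coding transcript, but 10 of the 15 and 2 of the 3 were members only through Huh7-si. Among genes with at least 5 TPM in Huh7-NC, 5 of 86 with KRAB and 1 of 78 without were 2-fold higher. The counting interval lay below 0 for 2 KRAB genes and for 18 of those without KRAB. The 11 genes with both KRAB and SCAN had a median of 0.36 and the 4 with SCAN alone 0.18.

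The gap between the classes, 0.46 on the log2 scale, lay between 0.34 and 0.47 under the settings that could change it. A scaling factor for a whole library, such as that of TMM, shifts all genes alike and could not change the gap. The gap was 0.45 with the deposited TPM values, 0.42 at a mean TPM of at least 10 and 0.36 for genes with at least 5 TPM in Huh7-NC. The classes also differ in base composition and level, with a median GC content of the longest transcript of 43.4% with KRAB and 54.0% without, a median length of 3315 and 2952 bases, and a median of the mean TPM of 8.33 and 12.8. After the median of all genes of like length and GC was taken off each gene, the medians were 0.36 with KRAB and 0.02 without, the narrowest gap of 0.34. Scaling by TMM, which lowers every log2 fold change by 0.22, turned the median of the genes without KRAB to -0.13 and left that of the KRAB genes at 0.34, while the median of all genes became -0.16.

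**Figure D2:**
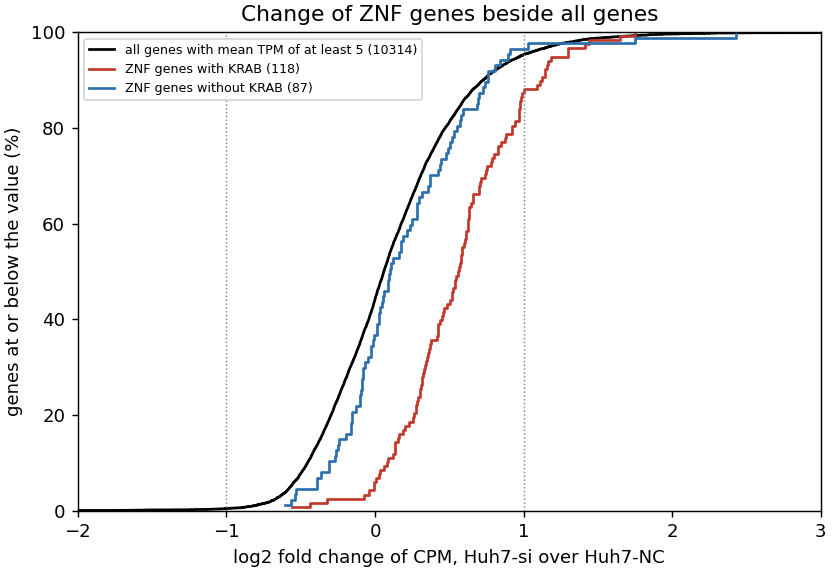
Share of genes (y axis, %) with a log2 fold change of CPM at or below the value on the x axis, for all 10314 genes with a mean TPM of at least 5, the 118 ZNF genes with KRAB and the 87 without. The curve of the KRAB genes lies to the right of the other 2, with medians of 0.56, 0.10 and 0.06 for KRAB, no KRAB and all genes.

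Among the 19 genes with a 2-fold rise, ZNF117 (ENSG00000152926, chromosome 7 from 64971776 to 65006684 of GRCh38, minus strand) stood highest, with 189 reads in the control library and 985 after the BRF2 siRNA, or 1.59 and 9.42 TPM. Its log2 fold change of CPM was 2.43 (95% interval 2.20 to 2.66), and no KRAB domain was found in its protein. ZNF117 shares its strand and part of its locus with ERV3-1, the envelope gene of an endogenous retrovirus, which went from 135 to 356 reads (1.45 on the log2 scale), so the split of reads between them is uncertain. ZNF731P (ENSG00000227671, chromosome 1 from 247189851 to 247210856, minus strand) is annotated as a transcribed pseudogene. Its 253 and 906 reads, or 5.11 and 22.4 TPM, gave a log2 fold change of 1.89 (1.69 to 2.10), so the next largest rise after ZNF117 was that of a pseudogene.

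ZNF224 (ENSG00000267680, chromosome 19 from 44094339 to 44109886, plus strand), a KRAB repressor known to act on the aldolase gene ALDOA, went from 137 to 446 reads, or 1.79 to 8.35 TPM. Its log2 fold change was 1.75 (1.47 to 2.04). ZNF608 (ENSG00000168916, chromosome 5 from 124636913 to 124748807, minus strand) encodes a large protein with 1 finger and no KRAB domain. With 193 and 627 reads, or 2.60 and 9.44 TPM, it too was at 1.75 (1.51 to 1.99). ZNF300 (ENSG00000145908, chromosome 5 from 150894392 to 150904983, minus strand), a KRAB gene outside chromosome 19, went from 247 to 748 reads, or 4.05 to 13.5 TPM, which is 1.65 (1.44 to 1.86). ZNF331 (ENSG00000130844, chromosome 19 from 53519527 to 53580269, plus strand) is a KRAB gene known to be imprinted, and its 241 and 631 reads gave 1.44 (1.22 to 1.66). ZNF100 (ENSG00000197020, chromosome 19 from 21722766 to 21767628, minus strand), with 205 and 527 reads, gave 1.41 (1.18 to 1.65). These 5 genes share almost no 50-base stretch with other genes (at most 4.51% of the longest transcript), and ZNF224 overlaps a gene on the opposite strand. TPM in Huh7-NC was under 5 in all 5 of them and over 8 in Huh7-si.

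ZNF675, whose protein is known to bind TRAF6, had 183 and 435 reads, which is 1.30 (1.05 to 1.56). Together with the 7 genes above it makes up the 8 genes whose interval lay wholly past 2-fold, and for the other 11 the interval reached below 2-fold. ZNF585A reached 1.30 (0.91 to 1.69) with 80.8 and 192 reads, but shares 18% of its 50-base stretches with other genes, and its paralog ZNF585B, under the filter, had 90.4 and 232 reads (1.41). ZNF692 was the 1 gene of the 19 with a high GC content (58.7%) and carries no KRAB domain. Its product is known as a repressor of the gluconeogenic gene PCK1. It had 421 and 829 reads, or 17.2 and 42.6 TPM, a log2 fold change of 1.03 (0.86 to 1.20). The remaining 9, ZNF160, ZNF107, ZNF83, ZNF69, ZNF528, ZNF253, ZNF606, ZNF776 and ZNF431, are all KRAB genes and lay between 1.002 and 1.19, with Huh7-NC reads from 134 in ZNF528 to 339 in ZNF69. Of the 19 genes, 13 overlap no other gene with reads.

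The ZNF genes lowest in Huh7-si relative to Huh7-NC were mostly short, GC-rich and without KRAB, and none reached 2-fold. ZNF593 (ENSG00000142684, chromosome 1 from 26169871 to 26170873, plus strand), a ribosome biogenesis factor of the large subunit, was the lowest. It went from 1028 to 653 reads, or 134 to 97.8 TPM, with a log2 fold change of -0.61 (95% interval -0.75 to -0.46). Its length is 698 bases, and relative to genes of like length and GC its value was -0.21. ZNF358 followed at -0.57 (1016 and 663 reads), then ZNF747 at -0.56 (576 and 377 reads) and ZNF511 at -0.54 (643 and 428 reads). All 3 share over 10% of their 50-base stretches with another gene on the same strand, so their reads may be split. ZNF428 was at -0.53, ZNF688 at -0.44, ZNF22 and ZNF296 at -0.39, ZNF581 at -0.37 and ZNF584 at -0.32. Of these 10 genes, ZNF747, ZNF688 and ZNF584 carry a KRAB domain. The interval of ZNF688, with 94 and 67 reads, included 0.

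Per length, the most abundant ZNF mRNAs belonged to genes without KRAB, and the log2 fold changes of the top 10 ran from -0.61 to 0.49. ZNF444 (a SCAN protein, chromosome 19) had 137 TPM in Huh7-NC and 139 TPM in Huh7-si and a log2 fold change of CPM of -0.10 (-0.17 to -0.04). ZNF787 had 124 and 112 TPM (-0.31), and ZNF207, a spindle protein that binds microtubules and BUB3, had 87.3 and 89.0 TPM (-0.08). ZNF638, a nuclear RNA-binding protein, was higher, with 56.6 and 74.2 TPM and a log2 fold change of 0.49 (0.40 to 0.58). ZNF384 also was higher, with 40.6 and 72.5 TPM and 0.42 (0.33 to 0.51). ZNF598, ZNF768 and ZNF146 lay at 0.12, -0.16 and 0.19. Across the 211 genes, which are not independent of each other, the rank correlation (Spearman's rho) of mean TPM with the log2 fold change of CPM was -0.33, against -0.42 across all 10314 genes. The 2 libraries enter both measures.

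Grouped by what the proteins are known to do, the 9 ZNF genes of RNA and ribosome biology had a median log2 fold change of -0.03, with values from -0.61 (ZNF593) to 0.49 (ZNF638). The interval lay above 0 for 2 of them and below 0 for 2, where 41.7% and 31.6% of all genes did. Besides ZNF593, ZNF207, ZNF638 and ZNF598 (the ubiquitin ligase that marks collided ribosomes), they were ZNF622 (-0.09), ZNF346 (-0.03), ZNF326 (0.03), ZNF830 (0.01) and ZNF385A (-0.07). For these last 5 the interval included 0. ZNF622, with 1049 and 953 reads, is another factor of the large ribosomal subunit.

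All 11 expressed genes of the list of chromatin complexes were higher in Huh7-si, with a median of 0.57 and 0 past 2-fold, where 55.9% of all genes were higher and 5.12% were 2-fold higher. Their median length was 5633 bases, and relative to genes of like length and GC their median change was 0.21. Among genes of 4749 to 18314 bases other than the ZNF members, 85.4% were higher. ZNF148, whose 0.57 is the median of the 11, had 3.57 TPM in Huh7-NC and 7.06 TPM in Huh7-si. It was a member only through Huh7-si. Of 16 genes listed, those under the filter were not counted. ZNF281 had 641 and 1165 reads (0.91, 0.77 to 1.05) and ZNF518A 705 and 1221 reads (0.84). ZNF217, an oncogene whose protein binds CtBP, had 1016 and 1589 reads (0.69). ZNF609, a partner of the cohesin loader, had 1000 and 1598 reads (0.73), and 0.17 when compared with genes of like length and GC. ZNF592 and ZNF687, which form a complex with ZMYND8, were at 0.28 and 0.17, and both turned negative (-0.27 and -0.08) relative to genes of like length and GC. ZNF410, known as an activator of CHD4, was at 0.25 and CHD4 itself at 0.59. Of the longest ZNF410 transcript 85.5% is shared with other annotated genes.

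All 7 expressed genes of the list for repeats, imprints and ZNF clusters were higher as well, beside 55.9% of all genes. Their median was 0.63 (0.25 with genes of like length and GC taken as reference), with 0 past 2-fold. Of the 7, ZNF85 and ZNF320, with 4.97 and 4.64 TPM in Huh7-NC, were members only through Huh7-si. Of 11 genes listed, those under the filter were not counted. ZNF274, which binds the 3′ ends of ZNF genes and recruits SETDB1 there, went from 968 to 1724 reads, or 21.2 to 40.8 TPM. Its log2 fold change was 0.88 (0.77 to 0.997), and 0.89 relative to genes of like length and GC. ZNF91, known to silence SVA elements, had 445 and 664 reads (0.63, 0.45 to 0.80), and ZNF93, known to silence LINE-1 elements, 548 and 664 reads (0.33, 0.16 to 0.49). ZNF445, a keeper of imprints, had 1396 and 2045 reads (0.60), ZNF85 146 and 223 reads (0.66) and ZNF263 709 and 781 reads (0.19). ZNF320 was at 0.64 and its same-strand neighbour ZNF468 at 0.31, but 99.5% and 99.2% of the 50-base stretches of their longest transcripts are found in another gene, so their separate values are uncertain.

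Of the 211 genes, 87 lie on chromosome 19, and 13 of the 19 with a 2-fold rise are among them. These 13 are 14.9% of the 87, where 5.12% of all genes were 2-fold higher. Of the 19, 12 were members only through Huh7-si, among them ZNF224, ZNF331 and ZNF100 on chromosome 19. Of all genes that passed the filter only through Huh7-si, 34.3% were 2-fold higher. The median log2 fold change was 0.52 on chromosome 19 and 0.36 elsewhere. On chromosome 19, the 65 KRAB genes had a median of 0.63 and the 20 genes without KRAB -0.03. On the other chromosomes the medians were 0.48 for 53 KRAB genes and 0.17 for 67 genes without KRAB. KRAB genes on chromosome 19 held 13 of the 15 KRAB genes past 2-fold, and 10 of these 15 were members only through Huh7-si.

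Members less than 500 kb apart were joined into groups of neighbours, and 15 groups held 4 or more. The largest, from ZNF304 to ZNF446 on chromosome 19 (57351307 to 58481230 of GRCh38), held 21 members, 19 of them KRAB genes, with a median of 0.74 and a range from -0.32 to 1.11. A group of 12 KRAB genes from ZNF766 to ZNF331 (chromosome 19 from 52269571 to 53580269) had a median of 0.59 and a range from 0.12 to 1.44. The 7 KRAB genes from ZNF85 to ZNF43 (chromosome 19 from 20923222 to 21852125) lay between 0.52 and 1.41 with a median of 0.71. In all 3 groups the median lay above that of the 211 genes. Beside the 0.63 of the 65 KRAB genes on chromosome 19, the median of the ZNF766 to ZNF331 group was lower. Each of the 3 groups holds genes that were members only through Huh7-si. Among them are ZNF17, ZNF83 and ZNF100, with 2.88, 3.07 and 1.91 TPM in Huh7-NC. Group medians without such genes were not taken.

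Between these clusters, the 10 members from ZNF628 to ZNF71 (chromosome 19 from 55476332 to 56626481), of which 1 encodes KRAB, had a median of 0.06 and a range from -0.37 to 0.70. On chromosome 16, the 9 members from ZNF48 to ZNF646 (30378106 to 31084196), 4 of them with KRAB, had a median of 0.01. In that group the KRAB genes ZNF747 and ZNF688 stood at -0.56 and -0.44. The highest median, 0.87, was that of the 4 genes from ZNF680 to ZNF92 on chromosome 7 (64519884 to 65401135), which include ZNF117. Of these, ZNF680, ZNF107 and ZNF117 had 3.99, 4.55 and 1.59 TPM in Huh7-NC and were members only through Huh7-si.

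**Figure D3:**
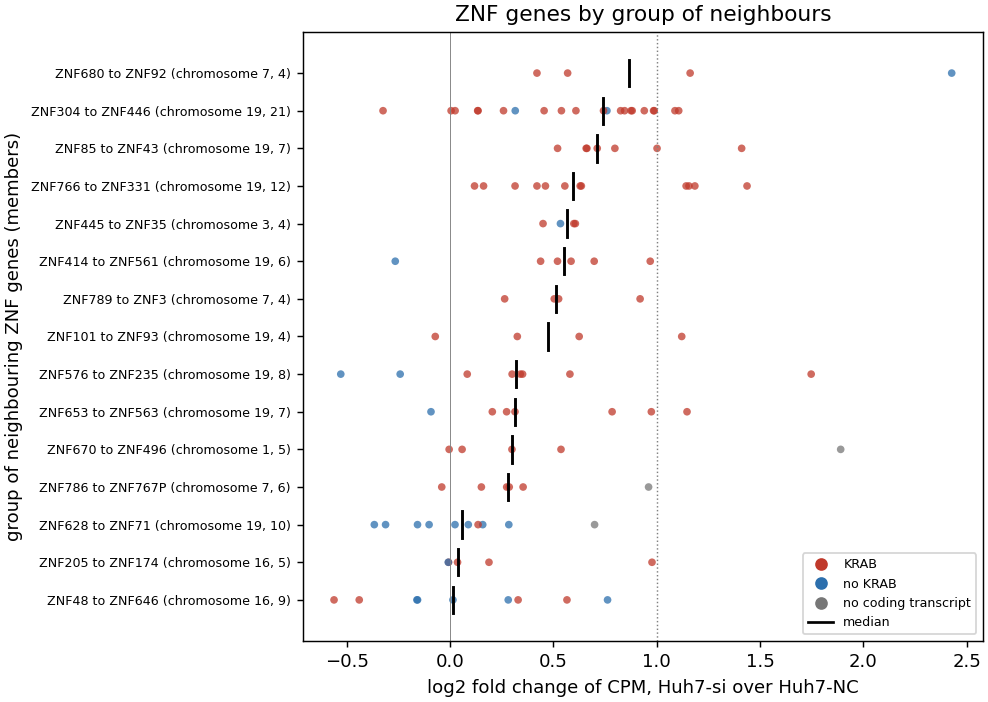
Log2 fold change of CPM (x axis) of each member in the 15 groups of neighbouring ZNF genes (rows, with chromosome and number of members), coloured by KRAB, with the group median as a black bar and 0 and 2-fold as vertical lines. The group medians run from 0.01 (ZNF48 to ZNF646) to 0.87 (ZNF680 to ZNF92). Members that passed the filter only through Huh7-si are included.

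Change varied with gene length among ZNF genes as it did among all genes. Between gene length and change, Spearman's rho was 0.42 across the 211 members and 0.50 across the 10314 genes, as a description over genes that share the same 2 libraries. The 52 shortest members (501 to under 2331 bases) had a median of 0.01, where the other genes of the same lengths had -0.19. The 53 longest members (4749 to 18314 bases) had 0.60 against 0.39. In each of the 4 length ranges the median of the ZNF genes was above that of the other genes.

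Change also varied with GC content. Spearman's rho was -0.48 across the members and -0.13 across all genes. The 53 members with the lowest GC content (33.2% to under 41.3%) had a median of 0.59, where the other genes in that range had 0.14. The 53 with the highest GC content (56.3% to 71.1%) had 0.04 against -0.01. By the number of fingers, the median was 0.02 for 30 genes with 0 to 3 fingers, 0.29 for 76 with 4 to 9, 0.56 for 62 with 10 to 14 and 0.58 for 37 with 15 to 31. Genes with more fingers had a lower GC content (rho -0.21 across 205 genes). KRAB genes had more fingers (median 11 against 6), so the groups by fingers are not independent of the KRAB classes. The groups by length, GC content and fingers include genes that were members only through Huh7-si. Among them are ZNF117 and ZNF224, with 1.59 and 1.79 TPM in Huh7-NC. Medians of these groups without such genes were not taken. Over all members the median relative to genes of like length was 0.23, relative to genes of like GC 0.32 and relative to genes of like length and GC 0.22.

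**Figure D4:**
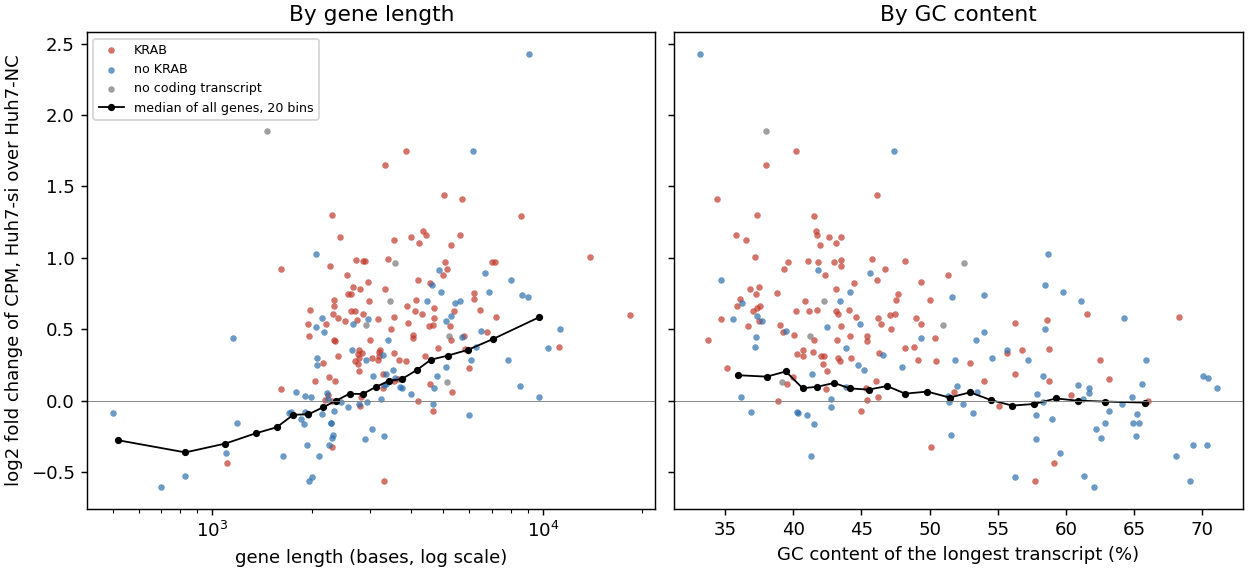
Log2 fold change of CPM (y axis) of the expressed ZNF genes against gene length in bases (left, log scale) and GC content of the longest transcript in % (right), coloured by KRAB, with the median of all genes in 20 bins as a black line. The line rises with length and is nearly flat over GC content, and most red points (KRAB) lie above it at a GC content under 50%.

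The deposited TPM values gave higher fold changes than the read counts for most members. By TPM, 36 of the 211 genes were at least 2-fold higher and 0 at least 2-fold lower, where 9.05% and 0.591% of all genes were, and 189 genes (89.6%) were higher at all, where 70.5% of all genes were. The median log2 fold change of TPM was 0.58 and that of all genes 0.26. In 17 genes both scales gave a 2-fold rise. The direction differed in 23 genes, of which 20 were lower by CPM and higher by TPM. ZNF585A, with a log2 fold change of 1.30 by CPM, had 6.85 and 7.75 TPM (0.18), and ZNF528, with 1.14 by CPM, had 4.86 and 5.66 TPM (0.22). ZNF235 went from 170 to 208 reads (0.34) and from 11.7 to 6.94 TPM (-0.75). On the other side, ZNF766 was at 0.42 by CPM and 1.14 by TPM, ZNF100 at 1.41 and 2.14, and ZNF548, ZNF551 and ZNF395 had a TPM value at least 0.60 above their CPM value. How the authors scaled for length is not given in the sources used here.

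**Figure D5:**
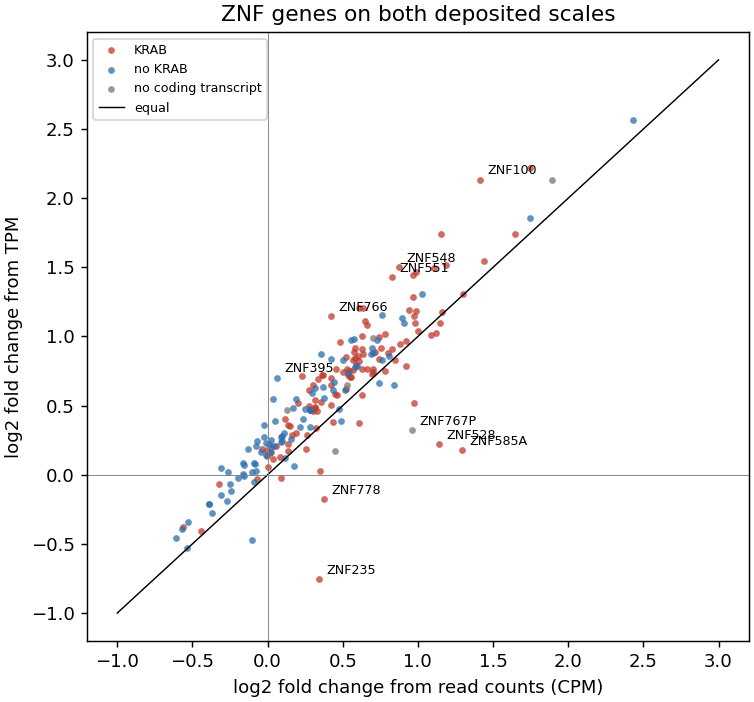
Log2 fold change from the deposited TPM (y axis) against that from read counts as CPM (x axis) for the 211 genes, coloured by KRAB, with the line of equal values. Most points lie a little above the line, and ZNF585A, ZNF528 and ZNF235 lie furthest below it.

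Promoters of 179 of the 211 genes were matched by symbol in RefSeq (GRCh38.p14), and the 250 bases before the annotated start were searched on both strands for 4 short motifs. The box with the letters CCAAT was found in 58.6% of 99 promoters of KRAB genes, 30.4% of 79 promoters of genes without KRAB and 32.0% of all 35116 promoters. The core of ETS factor sites (CGGAAG) was found in 51.5%, 36.7% and 16.5%. The GC box (GGGCGG) was found in 67.7%, 64.6% and 42.6%. The TATA box (TATAAA) was found in 4.04%, 2.53% and 10.7%. Among 17 promoters of genes past 2-fold, the shares were 58.8% for the CCAAT letters, 47.1% for the ETS core, 35.3% for the GC box and 17.6% for the TATA box. The median GC content of the windows was 60.4% with KRAB, 65.6% without and 58.0% for all promoters. Unlike the ZNF sets, the set of all promoters was not limited to genes that passed the TPM filter. Its values are therefore no matched reference for expressed ZNF genes, and promoters of all expressed genes were not tested.

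The windows of the same 6 genes as above are shown, since they stand for KRAB genes that were higher and genes without KRAB that were not, without reads of an overlapping gene. By CPM, ZNF787, ZNF775 and ZNF414 were at -0.31, -0.31 and -0.27, while by TPM they were at -0.14, 0.05 and 0.02. ZNF593, ZNF358 and ZNF428 lay lower by CPM and overlap other genes with reads. ZNF775 overlaps none but shares 22.3% of its 50-base stretches with other genes, so its reads may be split. The windows run 5′ to 3′ on the strand of the gene, without bases that lie in an annotated exon of GENCODE release 29, and capitals mark these motifs or their complements, some of which overlap. ZNF300 is on the minus strand at chr5:150904984-150905230, ZNF331 on the plus strand at chr19:53520764-53520947, ZNF100 on the minus strand at chr19:21767629-21767829, ZNF787 on the minus strand at chr19:56121296-56121545, ZNF775 on the plus strand at chr7:150379080-150379328 and ZNF414 on the minus strand at chr19:8514168-8514417, all of GRCh38.p14.
ZNF300: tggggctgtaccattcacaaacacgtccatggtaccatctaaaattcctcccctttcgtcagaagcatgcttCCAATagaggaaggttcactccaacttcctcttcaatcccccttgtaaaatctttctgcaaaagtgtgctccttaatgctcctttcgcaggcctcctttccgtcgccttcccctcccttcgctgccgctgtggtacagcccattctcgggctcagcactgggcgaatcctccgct
ZNF331: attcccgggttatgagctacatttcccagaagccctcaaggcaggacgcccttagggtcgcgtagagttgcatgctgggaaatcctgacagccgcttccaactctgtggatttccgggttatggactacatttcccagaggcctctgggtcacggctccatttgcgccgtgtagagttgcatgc
ZNF100: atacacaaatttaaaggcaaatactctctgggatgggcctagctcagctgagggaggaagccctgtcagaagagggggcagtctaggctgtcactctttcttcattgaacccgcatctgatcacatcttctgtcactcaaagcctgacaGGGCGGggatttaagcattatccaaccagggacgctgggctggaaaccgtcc
ZNF787: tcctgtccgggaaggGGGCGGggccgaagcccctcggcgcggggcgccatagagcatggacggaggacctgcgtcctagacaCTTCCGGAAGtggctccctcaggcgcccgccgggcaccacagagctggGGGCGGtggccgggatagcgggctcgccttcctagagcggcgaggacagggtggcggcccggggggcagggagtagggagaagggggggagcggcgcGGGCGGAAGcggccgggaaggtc
ZNF775: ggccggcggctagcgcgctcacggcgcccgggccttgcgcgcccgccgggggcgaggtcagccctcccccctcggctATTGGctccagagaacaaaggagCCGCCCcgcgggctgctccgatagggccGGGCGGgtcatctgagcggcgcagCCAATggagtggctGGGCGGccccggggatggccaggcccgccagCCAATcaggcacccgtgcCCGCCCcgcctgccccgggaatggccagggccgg
ZNF414: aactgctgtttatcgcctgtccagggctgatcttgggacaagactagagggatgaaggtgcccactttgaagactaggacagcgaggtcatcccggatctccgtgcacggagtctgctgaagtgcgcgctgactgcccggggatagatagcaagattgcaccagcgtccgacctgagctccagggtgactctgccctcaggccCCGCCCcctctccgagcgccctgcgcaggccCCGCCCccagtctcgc
The whole 250-base windows of the 3 genes that were higher had a GC content of 52.4% (ZNF300), 55.6% (ZNF331) and 54.4% (ZNF100) and 10, 14 and 8 CpG sites. Those of ZNF787, ZNF775 and ZNF414 had 74.8%, 77.6% and 63.2% and 27, 29 and 16 CpG sites. The GC box is present in all 3 of the latter and in ZNF100 among the former, and the window of ZNF331 holds none of the 4 motifs. A CCAAT match and an ETS core of ZNF100 reach into the 49 bases left out at its 3′ end.

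The genes of the machinery through which KRAB proteins silence DNA had a median near that of all genes. For a list of 28 KRAB corepressors and their partners, all above the filter, the median log2 fold change was 0.09. Of the 28, 1 (3.57%) was at least 2-fold higher and 0 were at least 2-fold lower, near the 5.12% and 0.601% of all genes. TRIM28, the direct partner of KRAB, went from 21521 to 16031 reads, which is -0.38 on the log2 CPM scale (-0.41 to -0.35), and 944 and 924 TPM. The heterochromatin protein gene CBX3 was at -0.40, and CBX5 and CBX1 at -0.16 and -0.11. SETDB1, the methyltransferase recruited by TRIM28, had 826 and 1326 reads (0.73, 0.61 to 0.86), and its cofactor ATF7IP 989 and 1620 reads (0.76, 0.65 to 0.88). ATRX, a chromatin remodeller, was the gene past 2-fold, with 620 and 1425 reads (1.25, 1.11 to 1.39). ATRX is 11165 bases long, and relative to genes of like length and GC it was at 0.82, SETDB1 at 0.37, TRIM28 at -0.49 and the whole list at a median of -0.04.

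Other zinc finger families with the same filter also had medians above the 0.06 of all genes. The 18 ZBTB genes, whose proteins carry a BTB domain, had a median log2 fold change of 0.36, all 18 above 0 and 1 past 2-fold. The 13 ZSCAN and ZKSCAN genes had a median of 0.46, with 11 above 0 and 2 past 2-fold, and the 4 ZFP genes had 0.48. Of all genes, 55.9% were above 0 and 5.12% were at least 2-fold higher. Relative to genes of like length and GC the 3 medians were 0.28, 0.28 and 0.38, and that of the expressed ZNF genes was 0.22. In whole-culture RNA, a change in RNA per cell and a change in the share of cells that hold it cannot be told apart.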

How the data were processed

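RNA-seq libraries of Huh7 cells were analysed, 1 per condition. The authors deposited 1 table with, for each gene and library, an estimated count (partly fractional, unscaled) and a TPM level. The submitters' processing notes name Bowtie2 2.0.6, TopHat2 2.0.12 and GRCh37. The counting tool, the annotation and the strandedness are not given in the sources used here. The table holds no coordinates. GENCODE release 29 (GRCh38) contains 94.8% of its gene identifiers and supplied positions, transcripts and proteins. The deposited columns of the authors' own comparison (fold change, log2 and p-value) were not used.

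Fold changes are ratios of CPM from the estimated counts, which were rounded for the 95% Clopper-Pearson intervals. Depth was 22852648 and 22089016 reads, and members had between 67 and 4118 reads in a library. KRAB and SCAN domains were searched with HMMER 3.4 (E-value 0.001), with profiles built from 217 and 47 translated sequences that hold the domain's pattern. Values relative to like genes are less the median of all genes in 20 bins of length or of GC, or in 10 by 10 bins of both. Shared sequence is the share of 50-base stretches of the longest transcript found in another gene, and 30 members shared over 10%. Overlap means an annotated gene with at least 10 reads. Scaling factors came from DESeq2 1.42.0 and edgeR 4.0.16 in R 4.3.3. All else was run in Python 3.11.15 (SciPy 1.17.1, pandas 2.3.3, matplotlib 3.10.9).

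The members, gene lists and classes were chosen with earlier results of these data known. Named are genes past 2-fold, the 10 highest and 10 lowest, the 10 most abundant, the 5 on each side of the filter, the 5 with the largest gap between TPM and CPM in each direction and the genes of the role lists. Chosen after their values were seen were the bins of fingers, length, GC and TPM, the split of chromosome 19 by KRAB, the promoter motifs, the sequences shown, the GC adjustments, the limit on shared sequence and the filter on Huh7-NC alone.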

Additional observations from a re-analysis of the deposited data

How the results depend on the processing

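No paired analysis was possible because each condition has 1 library and the labels give no replicate numbers. In the report's values, 19 members were 2-fold higher, 0 were 2-fold lower, and the medians of all members, KRAB genes and genes without KRAB were 0.42, 0.56 and 0.10. With TMM these were 9 higher and medians of 0.20, 0.34 and -0.13, with the median of ratios 9 and 0.21, 0.35 and -0.11, with the upper quartile 9 and 0.23, 0.37 and -0.087, and by the TPM columns 36 and 0.58, 0.75 and 0.30. BRF2 was at -1.99, -1.97, -1.95 and -1.59 under these 4. The first 3 of these settings shift every gene by 1 constant, so the order of the genes is the same under them. Of the 211 members, 4.27% were then 2-fold higher, where 2.99%, 3.15% and 3.32% of all genes were and 1.47%, 1.31% and 1.16% of all genes were 2-fold lower. All genes had medians of -0.16, -0.15, -0.13 and 0.26. A pseudocount of 1 CPM gave medians of 0.38 for all members and 0.54 for KRAB genes. At a mean TPM of at least 10, 2 of 93 genes were 2-fold higher and the medians were 0.28, 0.46 and 0.039. Without the TPM filter, 84 of 472 genes were higher and 2 lower, with medians of 0.58, 0.66 and 0.26. Relative to genes of like length, 11 were higher and the medians were 0.23, 0.38 and 0.018. The 119 members that overlap no other gene had 0.49, 0.63 and 0.16. A fold of 1.5 gave 72 higher and 1 lower. Among alternatives chosen after seeing the data, genes of like GC as reference gave medians of 0.32 and, with KRAB, 0.46, genes of like length and GC gave 11 higher and 0.22, 0.36 and 0.018, members with at most 10% shared sequence gave 0.12 without KRAB, and at least 5 TPM in Huh7-NC gave 7 higher and 0.29, 0.43 and 0.075. The cause of these moves was not tested where the construction (fewer genes, a lower fold, a shift of all genes) does not show it.

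Of 70 named members, 7 changed sign with TMM, 7 with the median of ratios, 6 with the upper quartile and 8 by TPM. Relative to genes of like length 7 changed sign, of like GC 2 and of both 7. The 9 genes 2-fold higher with TMM were ZNF117, ZNF731P, ZNF608, ZNF224, ZNF300, ZNF331, ZNF100, ZNF675 and ZNF585A. With 1 library per condition no spread between cultures can be estimated, so every fold change compares 2 libraries. Of the 19 genes past 2-fold, 12 were members only through Huh7-si.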
